A study of Mus musculus with 16 samples.

Results

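The nucleolar ribosome biogenesis genes described here are 50 genes of the 46078 in the count table, and they were chosen by name for what their proteins do in the nucleolus. The rule uses no measured value, but the list was drawn up with earlier results of these data known. Each of the 50 matched 1 gene of the table. By role they comprise 5 genes of RNA polymerase I and its activator, 3 of abundant nucleolar chaperones and a GTPase, 3 of the core of box C/D particles, 5 of box H/ACA particles and their chaperone, 14 of the small-subunit processome, 4 of late 40S maturation and 16 of 60S assembly. In the nucleolus RNA polymerase I copies the ribosomal DNA into a long precursor RNA, which box C/D particles methylate and box H/ACA particles pseudouridylate while cleavage and folding proceed. The small-subunit processome then releases the precursor of the 40S subunit, and a separate set of factors builds the 60S subunit. In haematopoietic stem cells (HSCs), most of which are quiescent, protein synthesis is known to be low, and mutations in genes of this pathway cause inherited bone marrow failure.

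Pools of 30 HSCs, gated as lin- sca1+ ckit+ (LSK), CD150+ and CD48-, were sorted from the tibiae, femurs and humeri of untreated C57/Bl6 mice. One group of pools came from the bone fraction (endosteal bone marrow, BM) and the other from the marrow fraction (central BM), each of Gfra2 WT and Gfra2 KO (Gfra2-/-) animals. The KO animals lack in all their cells the receptor GFRα2, on which cholinergic neurons depend for survival, so a difference between genotypes can arise inside or outside the HSCs. The 15 RNA-Seq libraries used here comprise 4 endosteal WT, 4 central WT, 4 endosteal Gfra2-/- and 3 central Gfra2-/- libraries, which are lettered within each group in the order of the table. Age and sex were not given in the sources used here, and although the study calls the libraries biological replicates, the labels do not tie them to animals, so p-values measure the spread between these libraries.

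Sequencing depth differed between the groups. Central WT libraries held 826487 to 3367289 counts on genes, against 4416648 to 18550008 in the other 3 groups, and they were shallower than every other library. Gfra2 itself had 0 to 4 counts in each WT library, and 2, 47, 1 and 9 counts in the libraries labelled Gfra2-/- from endosteal BM (A to D), so B and D hold more than any WT library, against the direction their label implies. Whether this is transcript of the altered allele was not tested. In the libraries labelled Gfra2-/- from central BM it had 0, 1 and 0 counts. The summed level of 10 HSC markers (Kit and Ly6a among them) was 2297 to 3182 CPM (counts relative to library size, scaled with TMM factors) in endosteal WT libraries, 1830.2 to 3186 in central WT libraries, 2593 to 3056 in endosteal libraries labelled Gfra2-/- and 3281 to 4070.2 in central ones. The 4 T cell markers summed to at most 0.487 CPM in all libraries but 1 central library labelled Gfra2-/- (36.5 CPM), and Cdh5, an endothelial marker, had 0 counts in every library. Other cell types were seen in single libraries, with 8 neutrophil and myeloid markers at up to 3358 CPM in central WT libraries and 4 B cell markers at up to 1844 CPM in endosteal libraries labelled Gfra2-/-. Cd48 and Flt3, markers of multipotent progenitors outside the gate, summed to medians of 17.6 CPM (endosteal WT) and 8.71 CPM (central WT). In libraries labelled Gfra2-/- the medians were 49.0 CPM (endosteal, up to 84.9 CPM) and 25.2 CPM (central), and the ranges of all groups overlapped. Flt3 was not used in the gate. Over all libraries erythroid markers reached 660 CPM, monocyte and macrophage markers 381 CPM and megakaryocyte markers 405 CPM. Osteoblast and stroma markers reached 52.6 CPM and the 4 endothelial markers 381 CPM. The 12 markers of cycling cells summed to 663 to 1957, 1234 to 2896, 897 to 2199.8 and 486 to 1206 CPM in the same order of groups. The part of depth, of these cells and of cycling in the results was not tested unless a value is given beside them. Fewer cells of a type and less RNA per cell cannot be told apart in such pools.

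Every member was expressed. 49 of the 50 members had at least 1 count in all 15 libraries, and the exception, Bysl, had 0 counts in central WT library C. Per kilobase of exon, the highest member was Nop10, a small protein of box H/ACA particles, at 199.9 CPM per kb (mean of the 4 group means). It was followed by Npm1, which codes for nucleophosmin, a chaperone of histones and ribosomal proteins, at 179.7 CPM per kb. Imp3, a U3 snoRNP protein of the small-subunit processome, had 173 CPM per kb. The lowest were Polr1a, the largest subunit of RNA polymerase I (4.11 CPM per kb), and Fbl, the box C/D methyltransferase fibrillarin (1.82 CPM per kb). For Fbl, low expression and reads lost to copies cannot be told apart. Of the 50 members, 6 (Npm1, Fbl, Nop56, Pes1, Wdr12 and Mrto4) have pseudogene copies that match their transcripts over at least 200 bases at 95% identity or more, and reads that fit both places may not be counted. For 5 members more than 5% of the exon bases are shared with another gene, the most in Tsr1 (32.3%) and Noc2l (20.9%), and the library protocol does not mark strand.

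The libraries of a group varied least for the abundant chaperones. The within-group SD of log2(CPM + 1) was 0.18 for Ncl (nucleolin) and 0.21 for Npm1. It reached 1.90 for Bop1, a scaffold of 60S assembly, and 1.73 for Bysl (bystin, late 40S maturation). Over the 15 members with a mean of 100 CPM or more the median SD was 0.60, and over the other 35 it was 0.91. With pools of 30 cells, a member of middle level such as Bop1 ranged from 3.41 to 169 CPM within endosteal WT libraries alone. Within groups the members showed no shared direction on balance. Over the 1225 pairs of members the median Pearson r of their deviations from the group means was near 0 (-0.01), and 49.3% of pairs had a positive r (description over 15 libraries that share depth and preparation).

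**Figure D1:**
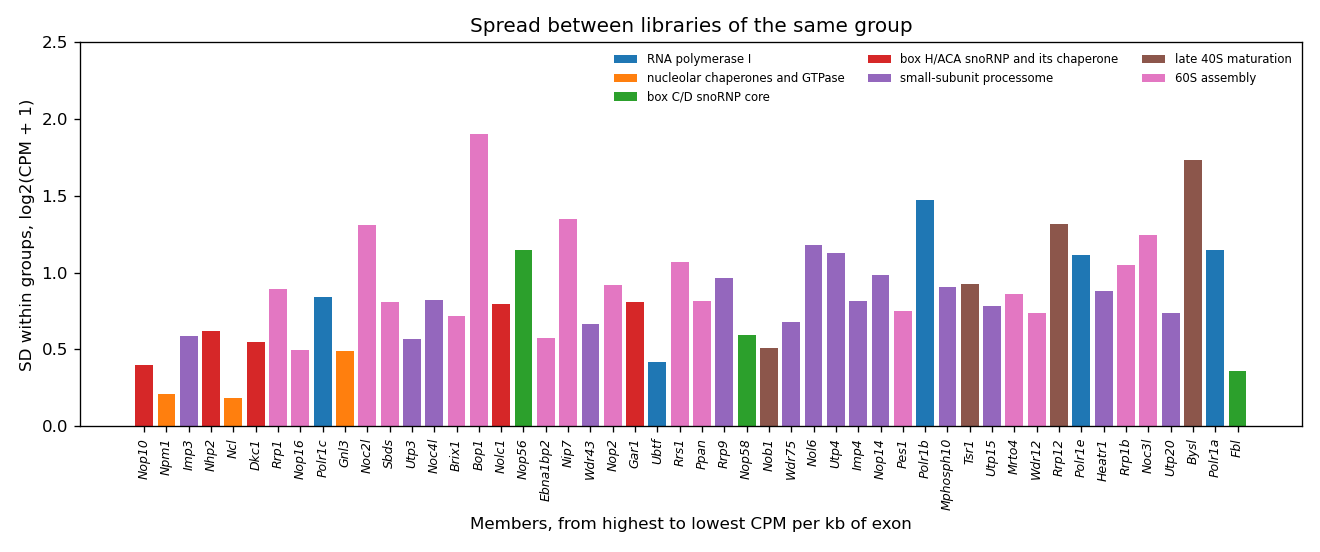
Spread of each member between libraries of the same group, as the pooled within-group SD of log2(CPM + 1) (vertical axis) for the 50 members, ordered from the highest to the lowest CPM per kb of exon and coloured by role. Ncl (0.18) and Npm1 (0.21) have the shortest bars and Bop1 (1.90) the tallest.

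The promoters of 4 members are printed because these members had the smallest p-values in the comparisons of compartment (Nop56, Nop2) or were box H/ACA genes low in the libraries labelled Gfra2-/- (Dkc1, Gar1). Each line gives the 250 bases before the RefSeq start on GRCm38.p6, from 5′ to 3′, with CACGTG, the core motif bound by MYC and related factors, in capitals. Npm1 is named without sequence.
Nop56 (chr2:130274162-130274411, plus strand): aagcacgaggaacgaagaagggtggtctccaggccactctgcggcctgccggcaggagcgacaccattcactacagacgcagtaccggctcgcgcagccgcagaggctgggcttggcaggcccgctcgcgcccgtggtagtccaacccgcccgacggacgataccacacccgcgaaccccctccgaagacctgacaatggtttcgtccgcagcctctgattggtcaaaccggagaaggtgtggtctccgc
Nop2 (chr6:125131633-125131882, plus strand): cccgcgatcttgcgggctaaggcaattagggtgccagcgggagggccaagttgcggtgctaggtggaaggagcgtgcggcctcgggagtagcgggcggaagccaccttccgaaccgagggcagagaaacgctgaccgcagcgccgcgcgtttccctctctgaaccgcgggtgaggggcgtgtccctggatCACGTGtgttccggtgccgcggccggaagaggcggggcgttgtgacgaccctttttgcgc
Dkc1 (chrX:75095604-75095853, plus strand): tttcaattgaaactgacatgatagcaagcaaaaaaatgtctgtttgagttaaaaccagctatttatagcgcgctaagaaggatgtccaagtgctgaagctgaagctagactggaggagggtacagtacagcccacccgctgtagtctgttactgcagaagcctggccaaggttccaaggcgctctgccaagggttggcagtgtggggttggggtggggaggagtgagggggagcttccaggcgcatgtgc
Gar1 (chr3:129831397-129831646, minus strand): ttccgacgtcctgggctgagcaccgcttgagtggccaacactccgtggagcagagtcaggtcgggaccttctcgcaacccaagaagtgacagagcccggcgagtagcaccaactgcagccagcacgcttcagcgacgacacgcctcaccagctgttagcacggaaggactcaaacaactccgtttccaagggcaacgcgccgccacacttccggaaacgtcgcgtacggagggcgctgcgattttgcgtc
Among these, the Nop2 promoter holds 1 CACGTG, which begins 60 bases before the start. The motif, which reads the same on both strands, was searched from 250 bases before to 50 after the start in the 43 members with an entry. It was found in 7 of them (Imp4, Nop2, Pes1, Tsr1, Utp20, Utp4 and Wdr43), or 16.3%, and in 8.09% of all 27025 genes of the table. The members had a median of 22 CG dinucleotides in this window, against 8 over all genes. A match of letters describes the window and says nothing of a factor's binding.

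The first comparison asked how endosteal and central HSCs of WT mice differed. None of the 50 members passed the test. In all, 30 of the 50 had a positive log2 fold change, against 51.5% of the 11181 genes tested, and the median was 0.36 beside 0.03 for all genes. The median of the members was 0.14 when at least 10 counts were required in every library, so it depended on members with few counts. With edgeR's quasi-likelihood test, 0 of 50 members and 0 of 11181 genes (0%) passed an FDR of 0.1. At an unadjusted p under 0.05, 8 members were higher (background 4.43%) and 1 was lower (background 3.46%), and DESeq2's Wald test called 1 member (Polr1e, FDR = 0.0516; background 1.54% higher and 1.45% lower). Here and below the DESeq2 background is over all genes with a p-value (20309 in this fit), many of them too low for edgeR's filter. It is therefore not a like background for the members, all of which were expressed. The 60S assembly genes held 12 of 16 positive values with a median of 0.96, whereas the 3 nucleolar chaperones and GTPase were all slightly negative (-0.23 to -0.14).

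The member with the smallest p was Nop56, a core protein of box C/D particles. Its level was 8.77, 176, 205 and 88.1 CPM in endosteal WT (libraries in the order A to D) and 30.8, 11.5, 16.1 and 29 CPM in central ones, a log2 fold change of 2.42 (standard error, SE, 0.82, FDR = 0.488). Endosteal library A lay below every central library, so the groups overlapped. Noc4l, a factor of 40S precursor export and processing, had 212, 55.8, 73.6 and 73.4 CPM in endosteal and 25.3, 11.8, 22.8 and 48.2 CPM in central libraries, a log2 fold change of 1.91 (SE 0.67, FDR = 0.511), and its groups did not overlap. Polr1e, a subunit of RNA polymerase I, had 29.5, 53.6, 37.3 and 8.59 against 9.96, 6.22, 1.34 and 2.70 CPM, a log2 fold change of 2.64 (SE 1.03, FDR = 0.580), where endosteal library D fell inside the central range. In the other direction, Utp15, a processome protein that links to RNA polymerase I transcription, had 20.0, 20.2, 32.2 and 44.2 CPM in endosteal and 30.8, 122, 45.6 and 133 CPM in central libraries (log2 fold change -1.53, SE 0.67, FDR = 0.609). Ubtf, the upstream binding factor that opens ribosomal DNA for transcription, had 127, 107, 102 and 134 and 248, 213, 206 and 121 CPM (log2 fold change -0.76, SE 0.36, FDR = 0.631), and Gar1 had 77.5, 31.0, 23.8 and 34.5 and 48.0, 46.0, 158 and 41.8 CPM (log2 fold change -0.83, SE 0.68, FDR = 0.798).

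In 6 of 50 members every endosteal WT library lay above every central one (Utp3, Rrp9, Noc4l, Rrp1b, Ppan and Brix1), and in 0 every one lay below. Over all genes tested these shares were 4.27% and 2.09%. Brix1, a 60S assembly factor named here after its values were seen, had 100.6, 69.9, 105 and 66.4 CPM in endosteal and 6.34, 41.4, 52.3 and 31.3 CPM in central libraries. Its edgeR log2 fold change was 1.37 (SE 0.67, FDR = 0.633). The counts behind these central WT values were few, with 7, 133, 39 and 93 for Brix1 and 34, 37, 12 and 86 for Nop56. When the counts of every library were thinned to the smallest, 27 of the 48 members that could be tested had a positive log2 fold change, with a median of 0.26 beside -0.08 for all genes. Without the 2 central libraries under 1500000 counts, 37 of 50 did, with a median of 0.66 beside 0.15. The share of positive values over all genes is not given for these 2 fits.

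In the libraries labelled Gfra2-/-, whose depth differed less between compartments, 35 of 50 members had a positive log2 fold change for endosteal against central, against 51.6% of 13860 genes, with a median of 0.30 beside 0.03. With edgeR 0 of 50 members and 0 of 13860 genes (0%) passed. At an unadjusted p under 0.05, 6 members were higher (background 2.74%) and 1 was lower (background 2.05%), and DESeq2 called 2 members higher (background 0.997%), Nop2 (FDR = 6.67e-04) and Utp4 (FDR = 0.00997). All 3 box C/D genes and all 4 late 40S genes had positive values, with medians of 0.69 and 0.98.

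Nop2, the methyltransferase that modifies 28S rRNA during 60S assembly, had 88.5, 107, 67.5 and 106 CPM in endosteal and 41.6, 35.2 and 32.4 CPM in central libraries labelled Gfra2-/-, a log2 fold change of 1.34 (SE 0.37, FDR = 0.896). The groups did not overlap. Utp4, a processome scaffold, had 46.8, 103, 84.4 and 87.6 against 27.4, 34.4 and 19.8 CPM (log2 fold change 1.56, SE 0.46, FDR = 0.896), and Nop56 had 182, 221, 137 and 226 against 62.8, 128 and 74.1 CPM (log2 fold change 1.11, SE 0.35, FDR = 0.896). Neither overlapped between compartments. On the other side, Polr1b, the second largest subunit of RNA polymerase I, had 57.2, 65.3, 37.6 and 71.8 CPM in endosteal and 107, 65.6 and 172 CPM in central libraries (log2 fold change -0.98, SE 0.42, FDR = 0.999), and these overlapped. The log2 fold changes of Noc3l and Polr1a were -1.37 (SE 0.71, FDR = 0.999) and -0.68 (SE 0.60, FDR = 0.999). In 8 of 50 members every endosteal library lay above every central one (Polr1e, Nop56, Nop58, Dkc1, Utp4, Nop2, Rrs1 and Brix1), against 3.67% of genes, and 0 members lay wholly below, against 3.67%. Brix1 had 108, 108, 105 and 129.5 CPM in endosteal and 63.0, 47.9 and 80.5 CPM in central libraries and separated the compartments within each genotype. The share of all genes that did so in both was not computed. Over both genotypes its ranges overlapped, with 66.4 to 129.5 CPM in endosteal and 6.34 to 80.5 CPM in central libraries. Without endosteal libraries B and D, which hold Gfra2 counts, the median of the members was 0.16 (chosen after the data were seen).

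Over both genotypes, with genotype as a term in the fit, most members of 5 of the 7 roles had higher levels in endosteal HSCs, and no test compared the roles. A positive log2 fold change was found in 14 of 16 genes of 60S assembly (median 0.53), 4 of 4 of late 40S maturation (0.85), 3 of 3 of box C/D (0.26), 4 of 5 of box H/ACA (0.13) and 9 of 14 of the processome (0.42). It was found in 2 of 5 genes of RNA polymerase I (-0.06) and 1 of 3 nucleolar chaperones and GTPase (-0.05). In all, 37 of 50 members were positive, against 53.3% of 13789 genes, and their median was 0.32 beside 0.06. With edgeR 0 of 50 members passed, against 4 of 13789 genes (0.029%). Unadjusted p-values under 0.05 were found for 9 members that were higher (background 4.62%) and 0 that were lower (background 3.5%), and DESeq2 called 4 higher (background 0.946%), namely Polr1e, Nop56, Nop2 and Brix1.

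Nop56 had 8.77 to 226 CPM (median 179) in 8 endosteal libraries and 11.5 to 128 CPM (median 30.8) in 7 central ones, a log2 fold change of 1.80 (SE 0.49, FDR = 0.288). Polr1e had 8.59 to 75.0 CPM (median 38.0) against 1.34 to 33.0 CPM (median 6.22) (log2 fold change 2.08, SE 0.64, FDR = 0.390). Nop2 had 49.5 to 175 CPM (median 92.8) against 6.74 to 88.7 CPM (median 32.4) (log2 fold change 1.57, SE 0.49, FDR = 0.399). In each of the 3 genes the ranges overlapped, and the endosteal median lay above the central one. The smallest p among negative values were those of Utp15, at -0.79 (SE 0.49, FDR = 0.722), of Noc3l, at -0.89 (SE 0.67, FDR = 0.765), and of Npm1, at -0.20 (SE 0.15, FDR = 0.783). Of the members followed for their role, Nob1, the endonuclease that makes the 3′ end of 18S rRNA, had a log2 fold change of 0.81 (SE 0.35, FDR = 0.588), Bysl one of 1.89 (SE 0.94, FDR = 0.643) and Sbds, whose protein releases a factor from the new 60S subunit, one of 0.52 (SE 0.43, FDR = 0.800). The PeBoW complex genes Bop1, Pes1 and Wdr12 had 0.48, 0.33 and -0.24, and the processome genes Heatr1 and Utp20 had -0.32 and -0.04, each within 1 standard error of 0.

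**Figure D2:**
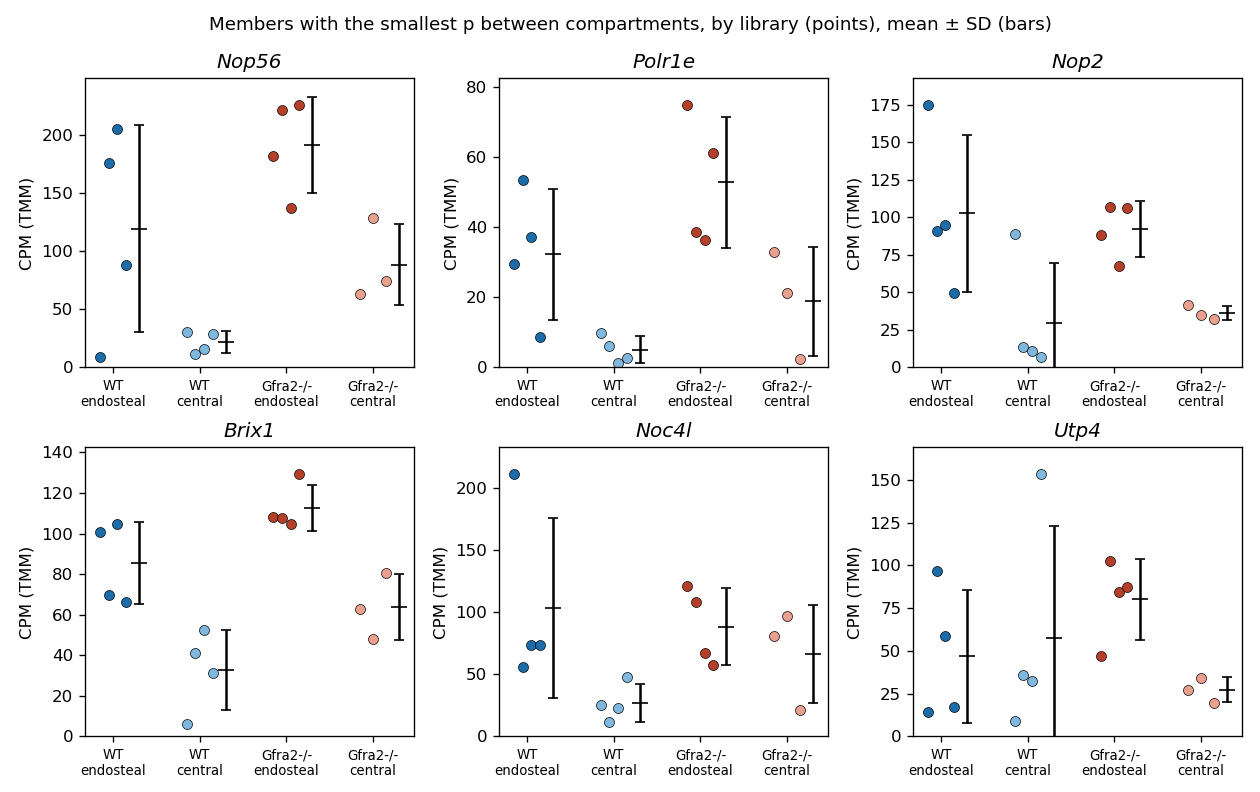
CPM (linear axes from 0) of 6 members by group, with 1 point per library and the mean ± SD beside the points. Endosteal points lie mostly above central ones of the same genotype. They do not overlap for Nop56, Polr1e, Nop2, Brix1 and Utp4 in libraries labelled Gfra2-/- and for Noc4l and Brix1 in WT libraries.

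The share of all gene counts that fell on the 50 members needs no scaling between libraries. It was 0.595% ± 0.0278 (SD, n = 4; 0.566% to 0.630%) in endosteal WT libraries and 0.477% ± 0.0541 (SD, n = 4; 0.419% to 0.546%) in central WT libraries, and the ranges did not overlap. It was 0.566% ± 0.0551 (SD, n = 4; 0.485% to 0.600%) in endosteal and 0.479% ± 0.0273 (SD, n = 3; 0.458% to 0.510%) in central libraries labelled Gfra2-/-, where endosteal library C (0.485%) lay inside the central range. No test was made of these sums, since the members were chosen with results of these data known. The sums weigh abundant genes most.

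The libraries labelled Gfra2-/- were compared with WT within each compartment and over both. In central HSCs 0 of 50 members passed with edgeR, against 6 of 11772 genes (0.051%, or 0.017% higher and 0.034% lower). An unadjusted p under 0.05 was found for 2 higher members (background 4.6%) and 4 lower ones (background 4.14%), and DESeq2 called Nop56 higher (FDR = 0.0494; background 1.79%) and Dkc1 lower (FDR = 0.0157; background 1.81%). A total of 28 of 50 had a positive value, against 51.4% of genes, and the median was 0.23 beside 0.03 for all genes. The roles went apart, since 13 of 16 genes of 60S assembly were positive (median 0.80) and 4 of 5 of box H/ACA (median -1.48) and all 3 nucleolar chaperones and GTPase (median -0.67) were negative. With spike-in scaling as fitted, which moved the median of all genes by 1.72, the 3 nucleolar chaperones and GTPase were at 0.95 to 1.29. Dkc1 was then at -0.24 and the other 4 box H/ACA genes at 0.33 to 2.05. Every central library labelled Gfra2-/- (7649803 to 14716308 counts) was deeper than every central WT library, so depth and genotype cannot be told apart there. The median was 0.0513 with counts thinned to 1 depth, and leaving out 1 library gave 0.0166 (without central WT library D), 0.11 (without central WT library B), 0.36 (without central WT library A) or 0.0472 (without library B labelled Gfra2-/-).

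Dkc1, the pseudouridine synthase dyskerin, which also holds telomerase RNA and is mutated in dyskeratosis congenita, had 397, 197, 390.2 and 457 CPM in central WT libraries and 133, 124 and 111 CPM in central libraries labelled Gfra2-/-, a log2 fold change of -1.59 (SE 0.38, FDR = 0.292). Npm1 had 722, 564, 749.5 and 545 against 366, 385 and 377 CPM (log2 fold change -0.80, SE 0.26, FDR = 0.381), and Gar1, a core box H/ACA protein, had 48.0, 46.0, 158 and 41.8 against 5.18, 26.4 and 22.1 CPM (log2 fold change -2.05, SE 0.87, FDR = 0.525). None of the 3 overlapped between genotypes. In the other direction Nop56 had 30.8, 11.5, 16.1 and 29 CPM in WT and 62.8, 128 and 74.1 CPM in the libraries labelled Gfra2-/- (log2 fold change 1.98, SE 0.69, FDR = 0.425), also without overlap, and Rrp1b and Noc4l, with log2 fold changes of 2.33 (SE 0.95, FDR = 0.507) and 1.25 (SE 0.80, FDR = 0.707), overlapped. In 6 of 50 members every library labelled Gfra2-/- lay below every WT library (Ncl, Npm1, Gnl3, Dkc1, Gar1 and Nolc1), against 4.44% of genes. In 3 members every one lay above (Nop56, Utp3 and Nop16), against 7.99% of genes. The 6 lower members are the 3 nucleolar chaperones and GTPase and 3 of the 5 box H/ACA genes.

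In endosteal HSCs 26 of 50 members had a positive log2 fold change, against 51.5% of genes, and the median was 0.02 beside 0.03 for all genes. With edgeR 0 of 50 members and 0 of 12970 genes (0%) passed. At an unadjusted p under 0.05, 0 members were higher (background 3.18%) and 2 were lower (background 3.52%), and DESeq2 called 1 lower, Npm1 (FDR = 0.0461; background 1.2% lower and 1.29% higher). Npm1 had 639, 529, 485 and 603 CPM in WT and 413, 267, 338 and 306 CPM in libraries labelled Gfra2-/-, a log2 fold change of -0.76 (SE 0.21, FDR = 0.645), without overlap. Nol6, a processome protein that binds the precursor RNA, had 224, 123, 199 and 89.6 against 40.9, 39.0, 116 and 18.7 CPM (log2 fold change -1.56, SE 0.56, FDR = 0.737), and Nop10 had 327, 232, 263 and 275 against 254, 203, 134 and 141 CPM (log2 fold change -0.58, SE 0.27, FDR = 0.741), both with overlap. The smallest p among higher members belonged to 3 processome genes, Wdr75 (log2 fold change 0.86, SE 0.42, FDR = 0.748), Utp15 (log2 fold change 1.07, SE 0.57, FDR = 0.757) and Mphosph10 (log2 fold change 0.81, SE 0.46, FDR = 0.784). The groups did not overlap in Npm1, which lay lower (background 3.55%), and Brix1, which lay higher (background 2.69%). The median of the members had the opposite sign without library A (-0.00924), B (-0.0356) or D (-0.0675) labelled Gfra2-/-, and without both B and D it was -0.16.

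Over both compartments, with compartment as a term, Npm1 fell in the libraries labelled Gfra2-/- and was the 1 member past the threshold, where 129 of 13789 genes (0.936%) were called, 90 of them lower (0.653%). Npm1 (ENSMUSG00000057113, chromosome 11, 33152287 to 33163206, minus strand) had 485 to 749.5 CPM (median 583) in 8 WT libraries and 267 to 413 CPM (median 366) in 7 libraries labelled Gfra2-/-. The highest of the latter lay below the lowest of the former, as in 0.203% of genes. Its log2 fold change was -0.79 (SE 0.15, FDR = 0.0299). This fit counted endosteal and central libraries as separate units. Pools of both compartments may come from the same animals, which the labels do not tell. Within 1 compartment the edgeR FDR of Npm1 was 0.381 (central) and 0.645 (endosteal). The group means were 564 ± 69.6 CPM (SD, n = 4) in endosteal WT and 645 ± 106 (SD, n = 4) in central WT libraries. In those labelled Gfra2-/- they were 331 ± 61.8 CPM (SD, n = 4) for endosteal BM and 376 ± 9.69 CPM (SD, n = 3) for central BM. Gm14681, a pseudogene whose transcript matches that of Npm1, had 62.0 to 102 CPM in WT libraries and 43.3 to 62.9 CPM in libraries labelled Gfra2-/-, and its own reads cannot be told apart from those of Npm1.

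The call of Npm1 depended on the libraries, the filter and the scaling. Its log2 fold change lay between -0.88 and -0.66 under every alternative when the value with spike-in scaling is taken relative to the shift of all genes. The FDR was 0.125 without a filter on low counts, 0.103 without the 2 shallowest central WT libraries, 0.264 in the 11 libraries with at least 0.5% spike-in reads, 0.1004 without library A of the central ones labelled Gfra2-/- and 0.135 without endosteal libraries B and D labelled Gfra2-/-. When libraries were scaled to the spike-in RNAs, the median of all genes moved by 0.66, and Npm1 as fitted had a log2 fold change of -0.11 and an FDR of 0.994.

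The 5 box H/ACA genes all had negative values in the genotype comparison (median -0.97), and they were negative in all 27 settings tried when spike-in values are taken relative to the shift of all genes, although with spike-in scaling as fitted Nop10 was 0.43 and the other 4 lay between -0.29 and -0.09. None passed with edgeR, while DESeq2 called 3 of them, Dkc1, Gar1 and Nolc1 (FDR = 0.0613, 0.0846 and 0.0785), besides Npm1 (FDR = 7.35e-06; background 3.1% lower). Dkc1 had 154 to 549.5 CPM (median 351) in WT libraries and 111 to 351 CPM (median 159) in libraries labelled Gfra2-/- (log2 fold change -0.97, SE 0.31, FDR = 0.205). Nolc1, a nucleolar chaperone of these particles, had 59.7 to 319 CPM (median 97.5) against 37.4 to 121 CPM (median 57.7) (log2 fold change -1.16, SE 0.41, FDR = 0.262), and Gar1 had 23.8 to 158 CPM (median 43.9) against 5.18 to 38.0 CPM (median 23.5) (log2 fold change -1.28, SE 0.53, FDR = 0.351). All 3 overlapped between genotypes. With 1 library left out the FDR of Dkc1 ranged from 0.0816 (without endosteal WT library C, the 1 omission that brought it past the threshold) to 0.389 (without central library A labelled Gfra2-/-). Nhp2 and Nop10, the other core proteins, had log2 fold changes of -0.38 (SE 0.32, FDR = 0.725) and -0.36 (SE 0.23, FDR = 0.603).

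The 3 nucleolar chaperones and GTPase were also all negative (median -0.47), in each of the 27 settings on the same terms, while Ncl was 0.58 with spike-in scaling as fitted. In the remaining roles, positive values were found in 12 of 16 genes of 60S assembly (median 0.21), 4 of 4 of late 40S maturation (0.49), 10 of 14 of the processome (0.28), 2 of 3 of box C/D (0.03) and 2 of 5 of RNA polymerase I (-0.06). Over all 50 members 30 were positive, against 53.2% of genes, with a median of 0.13 beside 0.07. Of the 50, 2 were higher at an unadjusted p under 0.05 (background 5.8%) and 4 were lower (background 5.66%). The smallest p among higher members were those of Nop56 (log2 fold change 1.27, SE 0.47, FDR = 0.289), Rrp1b (log2 fold change 1.23, SE 0.57, FDR = 0.423), which acts in 60S assembly, and Polr1e (log2 fold change 1.22, SE 0.62, FDR = 0.467). Nop56 had 8.77 to 205 CPM (median 29.9) in WT libraries and 62.8 to 226 CPM (median 137) in libraries labelled Gfra2-/-, which overlapped. Of the nucleolar GTPase and chaperone, Gnl3 (nucleostemin) had a log2 fold change of -0.47 (SE 0.27, FDR = 0.532) and Ncl one of -0.18 (SE 0.15, FDR = 0.715). Fbl had -0.54 (SE 0.66, FDR = 0.828), at no more than 13.1 CPM in any library. Polr1a, Ubtf, Heatr1, Utp20, Nob1, Bysl, Bop1 and Pes1 had values from -0.32 to 0.58, each within 1 standard error of 0. Wdr12 and Sbds had 0.67 (SE 0.35, FDR = 0.484) and 0.52 (SE 0.43, FDR = 0.716).

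**Figure D3:**
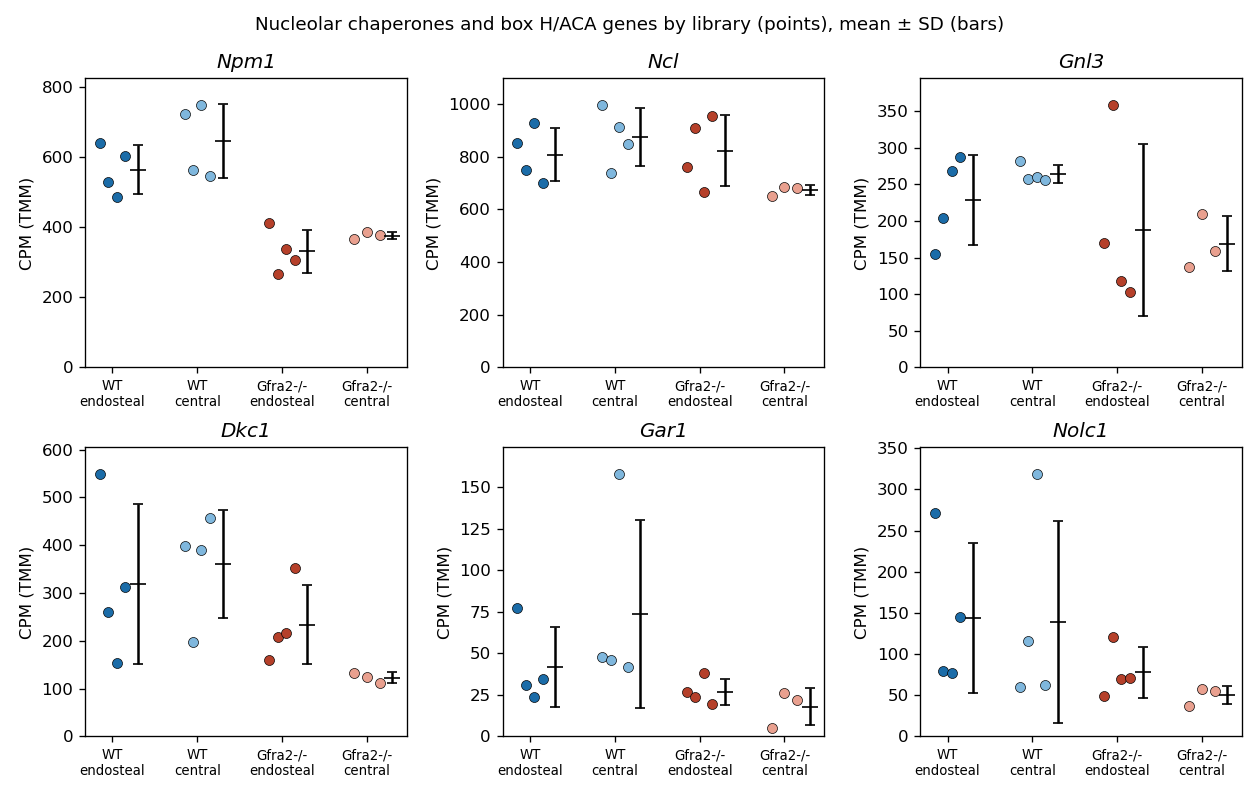
CPM (linear axes from 0) of the 3 nucleolar chaperones and GTPase (top) and of 3 box H/ACA genes (bottom) by group, with 1 point per library and the mean ± SD beside the points. All 7 Npm1 points of libraries labelled Gfra2-/- lie at or below 413 CPM and all 8 WT points at or above 485 CPM, while the other 5 genes overlap over both compartments.

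**Figure D4:**
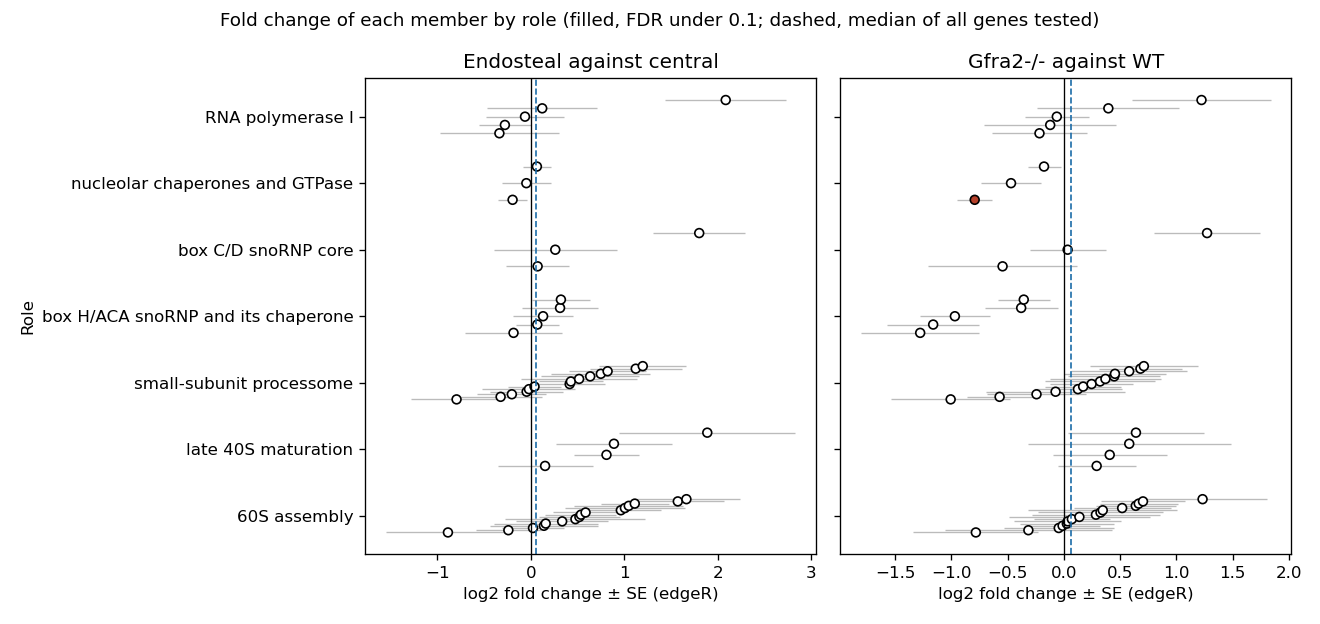
Log2 fold change ± standard error (edgeR) of each member, grouped by role, for endosteal against central HSCs over both genotypes (left) and for libraries labelled Gfra2-/- against WT over both compartments (right). Most 60S assembly genes lie right of 0 on the left, the 5 box H/ACA genes lie left of 0 on the right (TMM scaling; Nop10 is positive with spike-in scaling as fitted), and the single filled point is Npm1 (FDR = 0.0299).

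Whether the compartment difference itself differed between genotypes was tested with an interaction term. With edgeR 0 of 50 members and 0 of 15416 genes (0%) passed, 0 members had an unadjusted p under 0.05 (background 2.56% higher and 4.41% lower), and DESeq2 called 0 members. The median was -0.09 beside -0.12 for all genes, and 25 members were positive, against 46.3% of genes. The smallest p among positive terms were those of Ubtf (log2 fold change 1.04, SE 0.51, FDR = 0.712), Dkc1 (log2 fold change 1.11, SE 0.55, FDR = 0.713) and Utp15 (log2 fold change 1.60, SE 0.88, FDR = 0.747), and among negative terms those of Rrp1b (log2 fold change -2.09, SE 1.03, FDR = 0.713), Utp3 (log2 fold change -1.40, SE 0.76, FDR = 0.743) and Nop16 (log2 fold change -1.15, SE 0.64, FDR = 0.754). At these standard errors even a difference of -2.09 (Rrp1b) was not past the threshold.

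The 103 other ribosome biogenesis genes with a row in the table, a list compiled by role, gave a background from the same pathway. Between compartments over both genotypes 73 of 103 had a positive log2 fold change, against 53.3% of all genes, with a median of 0.29, beside 0.32 for the members. Over both compartments 55 of 103 were higher in the libraries labelled Gfra2-/-, against 53.2% of all genes, with a median of 0.05. With edgeR 0 of them passed in any of the 7 comparisons. At an unadjusted p under 0.05 there were 5 higher (all genes 4.62%) and 0 lower (all genes 3.5%) between compartments. Between genotypes there were 8 higher (all genes 5.8%) and 0 lower (all genes 5.66%). The smallest p between compartments were those of Mtrex, an RNA helicase of the nuclear exosome (log2 fold change 1.56, SE 0.49, FDR = 0.402), the 60S GTPase Gnl2 (log2 fold change 1.55, SE 0.50, FDR = 0.427) and Nifk (log2 fold change 0.65, SE 0.23, FDR = 0.471). Between genotypes they were those of the helicase Ddx47 (log2 fold change 1.09, SE 0.31, FDR = 0.143), Gnl2 (log2 fold change 1.48, SE 0.49, FDR = 0.219) and Ruvbl1 (log2 fold change 1.32, SE 0.47, FDR = 0.262). In WT libraries alone 68 of 103 were positive (all genes 51.5%) with a median of 0.34. In the libraries labelled Gfra2-/- 64 of 103 were (all genes 51.6%), with 0.23. Between genotypes 63 of 103 were positive in central HSCs (median 0.22, all genes 51.4%) and 54 of 103 in endosteal HSCs (median 0.03, all genes 51.5%).

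Myc, whose protein is known to drive transcription of many genes of this pathway, had 133, 163, 119 and 142 CPM in endosteal WT libraries and 131, 18.0, 95.2 and 29.7 CPM in central ones. In libraries labelled Gfra2-/- it had 219.7, 342, 198 and 237 CPM in endosteal and 197, 90.6 and 149 CPM in central BM. Its log2 fold change was 0.91 (SE 0.35, FDR = 0.536) between compartments and 0.94 (SE 0.35, FDR = 0.285) between genotypes, neither past the threshold. Its part in the levels of the members was not tested.

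**Figure D5:**
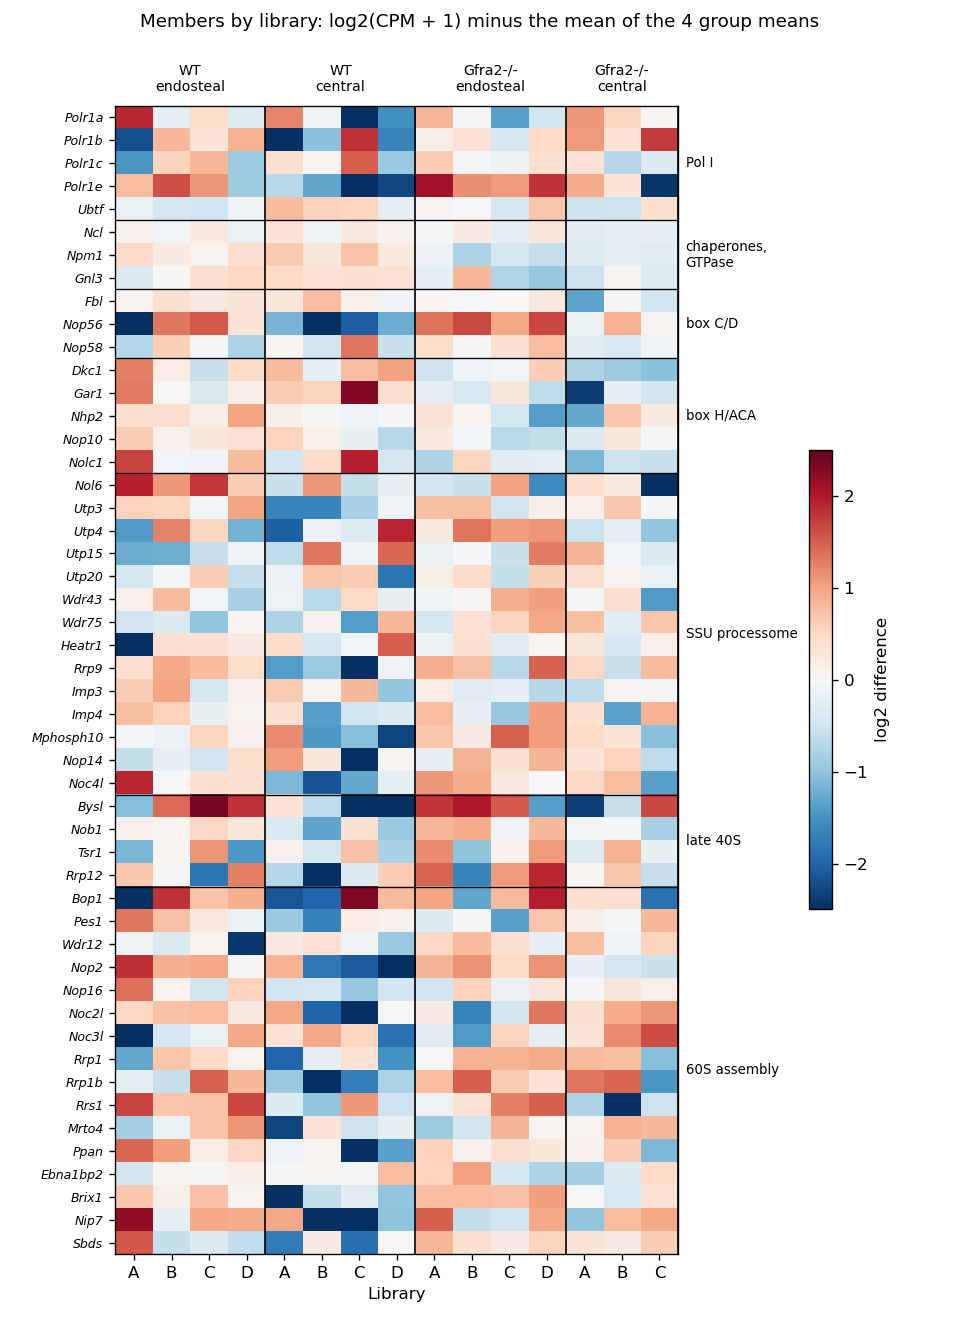
Each member (row, by role) in each library (column, by group), as log2(CPM + 1) minus the mean of the 4 group means, from blue (lower) to red (higher), with the colour scale ending at ±2.5. Blue cells gather in central WT libraries for 60S assembly genes. The row of Npm1 is faintly blue in libraries labelled Gfra2-/- of both compartments, and that of Dkc1 is blue in the central ones.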

How the data were processed

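RNA of sorted pools of 30 HSCs was amplified with the Smart-Seq2 method with added spike-in RNAs and sequenced as single reads of 50 bases. The authors aligned the reads with GSNAP and counted them per gene with HTSeq (0.5.3p3), and the deposited values are raw counts of 46078 mouse genes and 92 spike-in RNAs. The libraries were grouped by the labels, and columns were tied to groups through the sample lists of the study. 1 column that could not be tied to a group was not used. Gene IDs were given symbols and exon lengths from GENCODE M21 (GRCm38). Reads carry no molecular identifiers, so depth bounds counting error only.

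Counts were tested with edgeR 4.0.16 (TMM scaling, filterByExpr, quasi-likelihood test) in R 4.3.3 across all genes kept, with Benjamini-Hochberg adjustment (FDR) over all of them and a threshold of 0.1. SE is the standard error of a log2 fold change. Each of 4 pairwise comparisons used its own groups, and 3 fits used all libraries (compartment, genotype and their interaction). These fits took every library as a separate unit, although some pools may share an animal. The comparisons share libraries, so their results are not independent. Raw counts gave CPM with TMM library sizes, log2(CPM + 1) was used for spreads, and level per length is CPM per kb of exon. DESeq2 1.42.0 (Wald test), other size factors, spike-in scaling, filters, thinned counts, library cut-offs and omission of each library were tried as alternatives. The quality cut-offs used here were more than 1500000 counts on genes and under 20% mitochondrial counts. Central WT libraries A and C did not pass them. The study set its own cut-off on uniquely mappable reads and also required a number of well-covered genes, which was not applied here. DESeq2 shares are over the 20268 to 23304 genes with a p-value, against 11181 to 15416 genes kept by edgeR. The compartment fits in WT libraries and over both genotypes were also run on counts simulated with a common spread for all genes. The members differ in spread, so that run does not measure how the fits perform for them.

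The 50 members, the 103 other genes and the marker lists were chosen with earlier results of these data known. Named members are the 3 with the smallest p in each direction in each fit, 17 fixed for their role, those past the threshold and those highest and lowest per length. Copies of members were found with blastn 2.17.0, and promoters are from RefSeq (GRCm38.p6), with 43 of 50 members matched.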

Additional observations from a re-analysis of the deposited data

Results flagged for a closer look

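Named members were examined for a single library that lay far from the other libraries of its group by Dixon's test at the 95% level, which chance flags in about 1 in 20 groups. Of 102 groups of 4 libraries examined over 33 named members and the summed share, 13 held such a library, and groups of 3 were not examined. In endosteal WT library A, Heatr1 had 7.80 CPM (other libraries 55.5 to 64.4), Noc4l had 211.5 CPM (55.8 to 73.6) and Sbds had 169 CPM (37.1 to 44.6). In central WT library A, Gnl3 had 282 CPM (256 to 260), Mphosph10 had 73.3 CPM (5.73 to 14.7) and Nop2 had 88.7 CPM (6.74 to 13.4). In central WT library B, Nol6 had 123 CPM (37.5 to 49.9). In central WT library C, the shallowest library, Gar1 had 158 CPM (41.8 to 48.0), Nop16 had 36.2 CPM (50.7 to 52.2) and Polr1b had 179.7 CPM (2.72 to 24.3). In endosteal libraries labelled Gfra2-/-, Nob1 had 47.0 CPM in library C (91.2 to 99.1), Brix1 had 129.5 CPM in library D (105 to 108), and the share of gene counts on the 50 members was 0.485% in library C (0.581% to 0.600%).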

How the results depend on the processing

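No paired analysis was possible because the count table names its columns without the replicate numbers of the labels, and column order was not used to assign them. DESeq2 called 1 member in WT libraries between compartments, 2 in libraries labelled Gfra2-/-, 2 in central and 1 in endosteal HSCs between genotypes, and 4 each in the compartment and the genotype fit. The 1 call between genotypes became 0 with spike-in scaling, without a count filter, with the quality cut-offs, with at least 0.5% spike-in and without the 2 libraries with 9 or more Gfra2 counts (0 to 2 with each library left out). Medians with spike-in scaling are given here relative to the shift of all genes, with the value as fitted in parentheses. The median log2 fold change of the members in WT libraries was 0.23 with DESeq2 size factors, 0.69 (2.24) with spike-in scaling, 0.14 with at least 10 counts in every library, 0.66 with the quality cut-offs and 0.26 to 0.49 with each library left out. In libraries labelled Gfra2-/- it was 0.16 without those 2 libraries, and -0.0754 as fitted with spike-in scaling (0.21 to 0.38 with each left out). In central HSCs between genotypes it was 0.11 with DESeq2 size factors and 0.33 with spike-in scaling (shift of all genes 1.72). It was 0.0867 with at least 10 counts, 0.0513 with thinned counts and 0.0166 to 0.36 with each left out. With a term for libraries under 0.5% spike-in reads, which the labels do not give as a batch, it was 0.39. In endosteal HSCs it was 0.25 (-0.0680) with spike-in scaling, -0.16 without those 2 libraries and -0.07 to 0.12 with each left out. Members without overlap numbered 17 (quality), 11 (spike-in share) and 6 to 14 (each left out) in WT libraries, and 16 (without those 2) and 9 to 12 in libraries labelled Gfra2-/-. They numbered 21, 19 and 11 to 16 in central HSCs, and 1 (thinned), 9 (spike-in share), 8 (without those 2) and 3 to 6 in endosteal HSCs. Fewer libraries overlap less by construction, and other causes were not tested. The share over all genes was not computed for these subsets or for thinned counts, so these numbers have no background. Without mitochondrial genes and rRNA the share on members was 0.657% in endosteal WT, 0.525% in central WT, 0.643% in endosteal and 0.538% in central libraries labelled Gfra2-/-. Noc3l between compartments (0.0431) and Noc4l between genotypes in central HSCs (-0.00557) reversed relative to all genes with spike-in scaling, which moved the median of all genes by -2.06 to 1.72. Of 1021 recomputed values of 47 values of named members, 999 kept direction and side of the threshold, 6 lost and 14 gained a call. Only the genotype value of Npm1 had a call to lose, and the 6 losses were all its own. The tally therefore mostly counts values without a call that stayed so. Spike-in values entered it relative to the shift of all genes, and a stricter FDR of 0.05 on the same fit counted as recomputed. The fits with a term for libraries under 0.5% spike-in reads and without the 2 libraries were chosen after seeing the data.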
